A study of Mus musculus with 4 samples.

Results

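The genes described here are 47 that copy the genome or make its building blocks: the origin recognition and licensing factors, the Mcm replicative helicase, the primase and polymerases, the sliding clamp with its loader and the single-strand binding protein, the enzymes of lagging strand processing, of deoxynucleotide supply and of uracil removal, and factors that rebuild chromatin and its methylation behind the fork. They were listed by name for their role in DNA replication, at a time when earlier results of these data were known. Of the 47, 45 were measured among 12394 genes tested, each through 1 probe set, the one with the highest mean over the arrays. Gins2 and Chaf1a were not analysed here, because no probe set carried only their symbol.

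The arrays were hybridized with RNA of bone marrow cells from mice with the Mll-AF4stop knock-in allele, which holds the leukemia fusion of Mll (Kmt2a) and AF4 (Aff1) silent until Cre recombinase acts. All mice received 5-FU, a drug that kills dividing blood cells, and their marrow was infected in culture 5 days afterwards. The Cre-GFP group (2 arrays) received a Cre-GFP retrovirus and the control group (2 arrays) a GFP control retrovirus, GFP+ cells were sorted after 2 days, and both groups were then kept for 14 days with cytokines for lymphoid progenitors. Labels of the samples call the control virus MIG-GFP while the series' design text names it MIG-Cre, and the sample labels were followed here. If the control virus held Cre too, the groups would not differ in whether the fusion was switched on, and under the sample labels the fusion and Cre itself cannot be told apart. Strain, age and sex, the number of mice and whether replicate arrays stand for different animals or cultures are not given in the sources used here. As a result, p-values cover the spread among 4 arrays alone, and that spread may be technical.

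Before a cell divides, the origin recognition complex, Cdc6 and Cdt1 load the Mcm helicase onto DNA, and Geminin (Gmnn) blocks a second loading in the same cycle. At the start of S phase Cdc45 and the GINS complex turn the loaded helicase on, primase and polymerases copy both strands, and ribonucleotide reductase and thymidylate synthase supply the deoxynucleotides. Most of these genes are targets of the E2F transcription factors, which the retinoblastoma protein holds in check, and dividing progenitors of the marrow express them at high levels.

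None of the 45 measured genes passed the test between Cre-GFP and control cells. In limma 0 of 45 passed an adjusted p of 0.05, as did 0.00% of all genes (0 of 12394), and the smallest adjusted p among the 45 was 1. At an unadjusted p under 0.05, 0 of the 45 were found against 4.84% of all genes (600). With shared probe sets left out that count was 1 of 39, beside 521 of 10531 genes tested under that setting. Without control 1 the smallest limma adjusted p was 0.094 (Mcm3). The differences, given throughout as Cre-GFP minus control on the log2 scale of intensity with limma's standard error (SE, n = 2 per group), ran from −0.35 for Rrm2 to 0.64 for Mcm3, with a median of −0.024 against a median of all genes of 0.00 and with 16 genes higher and 29 lower. With the mean of all probe sets of a gene 23 were higher and 22 lower, and the median was 0.0029. The size of the group difference had a median of 0.13 over the 45 genes, while the 2 arrays of one group lay apart by a median of 0.22 in Cre-GFP and 0.19 in control. Over all genes these medians were 0.10, 0.16 and 0.15. A difference between means of 2 arrays varies less than one between single arrays, so the first size is not directly comparable with the others. In 8 of the 45 genes the group difference was larger than both replicate differences, a share of 17.8% beside 19.8% of all genes.

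The confidence intervals of limma describe the probe set used for each gene and the spread among these arrays alone. As that spread may be technical, they set no limit on a difference between animals, nor on other probe sets of a gene. The 95% confidence interval of the difference lay within 1.5-fold in either direction for 23 of the 45 genes (69.5% of all genes) and within 2-fold for 43 (94.3% of all genes). The 2 whose interval reached past 2-fold were Mcm3, with bounds of −0.82 and 2.11, and Rfc2, with bounds of −0.46 and 1.01. The narrowest was that of Rpa1, from −0.27 to 0.22. The interval reached a median of 0.44 to either side over the 45 genes and 0.37 over all genes.

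**Figure D1:**
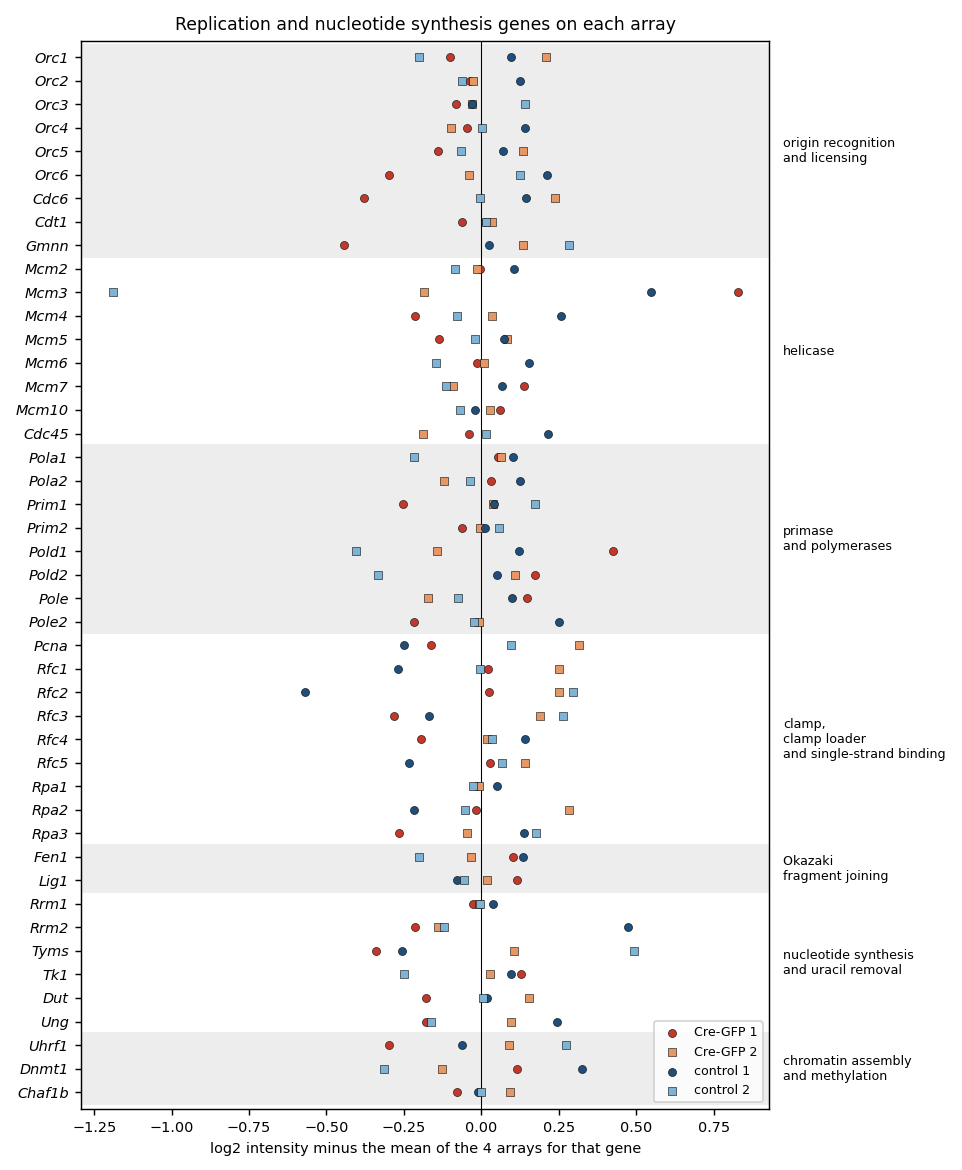
Each row is one of the 45 genes, grouped by role, and each point is one array's log2 intensity minus that gene's mean over the 4 arrays, with Cre-GFP in red and orange and control in dark and light blue. The red and orange points mix with the blue ones in most rows, and Mcm3 spreads farthest, from 11.20 in Cre-GFP 1 to 9.18 in control 2.

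The brightest B lineage markers were Vpreb1 and Igll1, the surrogate light chains of the pre-B cell receptor. They read 13.28 to 13.80 and 13.60 to 13.83 over the 4 arrays. The dimmest was Pax5, at 5.88 to 6.22, with a mean at percentile 35.6 of all genes. Cd79b and Pou2af1 differed most between the groups, by −1.70 and −1.68. Bright genes weigh most in the sums that follow. The summed linear intensity of 11 of 12 B lineage markers was 30502 to 30595 in Cre-GFP and 36620 to 40754 in control, with 9 of the 11 lower in Cre-GFP. That of 11 of 12 neutrophil, monocyte and macrophage markers was 4423 to 4429 in Cre-GFP and 1643 to 4802 in control, with 10 of the 11 higher in Cre-GFP. T lineage (6 of 8 measured) and erythroid markers (5 of 7) summed to 324 to 358 and 340 to 359 over the 4 arrays. The sum of 4 of 5 progenitor markers was 779 to 1045 in Cre-GFP and 649 to 751 in control. Of these, Meis1 read 7.69 and 7.54 in Cre-GFP versus 5.84 and 5.94 in control, a log2 difference of 1.73. Kit, Flt3 and Cd34 differed by only 0.079, 0.16 and 0.087, and the groups of Kit and Cd34 overlapped. RMA intensities have no true 0, so no marker read 0. The summed intensity of the 45 replication genes was 95348 to 95883 in Cre-GFP and 89964 to 103486 in control, so the Cre-GFP values lay inside the range of the control values. Bright genes weigh most in this sum too, and it does not stand for all 45 alike. The brightest were Rpa1, Fen1 and Mcm7, with means of 13.71, 13.59 and 13.24, each read by a shared probe set. The part of cell type makeup in any of the values below was not tested, and in bulk RNA fewer cells in cycle and less of a transcript per cell cannot be told apart.

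The E2F motif, searched as TTTCCCGC, TTTCGCGC, TTTGCCGC and TTTGGCGC on both strands, is the sequence these genes are best known to share, and it is shown here because it was not used to choose them. RefSeq promoter windows (GRCm38.p6, 250 bases before to 50 after a start site, 300 in all) matched 41 of the 47 genes, with 52 windows. The motif stood in 15 of the 52 windows (28.8%), those of 15 genes, against 2.26% of all 32851 windows. CCAAT, the box bound by NF-Y, stood in 55.8% against 37.4%, and TTTGAA, the core of the element of late cell cycle genes, in 9.62% against 17.9%, each on both strands. A match describes letters only, and copies that overlap were each counted. The stretches below hold the motif in capitals and read 5′ to 3′ on the gene's strand, and in Mcm5 and Mcm6 a copy on each strand overlaps into 1 longer run.
Mcm5, chr8:75109340-75109383, plus strand: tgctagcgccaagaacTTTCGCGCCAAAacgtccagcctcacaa
Mcm6, chr1:128359729-128359831, minus strand: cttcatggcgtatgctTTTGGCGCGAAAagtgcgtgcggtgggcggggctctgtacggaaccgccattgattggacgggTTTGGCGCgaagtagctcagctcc
Mcm7, chr5:138172025-138172064, minus strand: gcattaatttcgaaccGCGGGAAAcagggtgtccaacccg
Mcm3, chr1:20820266-20820294, minus strand: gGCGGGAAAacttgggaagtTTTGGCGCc
Cdc6, chr11:98907997-98908036, plus strand: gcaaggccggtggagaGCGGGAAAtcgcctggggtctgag
Orc1, chr4:108579411-108579450, plus strand: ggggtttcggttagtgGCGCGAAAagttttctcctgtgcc
Uhrf1, chr17:56304112-56304151, plus strand: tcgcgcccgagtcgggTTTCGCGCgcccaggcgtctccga
Rfc3, chr5:151651209-151651234, minus strand: aagtgacgtcgcacgcTTTCGCGCtc
The Mcm3 stretch lies from base 19 to base 47 after the start site, and the others lie before it. The 15 genes with the motif had a median difference of −0.012, with 6 higher and 9 lower in Cre-GFP, and the 25 measured genes with a window but without the motif a median of −0.023, with 9 higher.

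Among the 9 origin recognition and licensing genes, 8 were lower in Cre-GFP and 1 higher, with a median difference of −0.11 and none past the test. This count holds for the probe sets used. Other probe sets gave 0.088 and 0.18 for Orc3, 0.014 and 0.046 for Cdt1, and −0.11 and 0.14 for Orc2. Orc6, a subunit of the origin recognition complex, read 9.18 and 9.44 with Cre-GFP virus versus 9.69 and 9.61 with control virus. Both Cre-GFP values lay below both control values, a difference of −0.34 ± 0.18 (limma adjusted p = 1), and it was −0.21 without Cre-GFP 1. Gmnn, the inhibitor of relicensing, read 10.96 and 11.54 versus 11.43 and 11.69, a difference of −0.31 ± 0.23. Its groups overlapped, and the low array was Cre-GFP 1, without which the difference was −0.019.

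Cdc6, the loader of the Mcm helicase, read 7.72 and 8.34 with Cre-GFP virus versus 8.24 and 8.10 with control virus. The 2 Cre-GFP arrays lay 1.53-fold apart, on either side of both control arrays, and the group difference was −0.14 ± 0.24. It was 0.17 without Cre-GFP 1. Cdt1, the partner of Cdc6 that Gmnn binds, was among the steadiest of the 45 genes, reading 11.16 and 11.26 against 11.23 and 11.24. Orc4 differed by −0.14 ± 0.15 with groups apart, on a probe set whose 2 companions differed by −0.42 and 0.24. The other subunits Orc1, Orc2, Orc3 and Orc5 differed by 0.11, −0.062, −0.11 and −0.0062, each with overlapping groups.

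Of the 8 helicase genes 3 were higher and 5 lower, with a median difference of −0.012, and Mcm3 and Cdc45 lay farthest from 0. The Mcm2 to Mcm7 proteins form the ring that unwinds DNA at the fork. Mcm2 read 12.07 and 12.06 with Cre-GFP virus versus 12.18 and 11.99 with control virus, a difference of −0.018 ± 0.14. Mcm6 read 11.06 and 11.09 versus 11.23 and 10.93, a difference of −0.0060 ± 0.17. For both genes the 2 Cre-GFP arrays lay between the 2 control arrays. Mcm7 read 13.38 and 13.15 versus 13.31 and 13.13, a difference of 0.045 ± 0.14 (−0.0063 to 0.36 on its other probe sets). Mcm5 read 8.24 and 8.46 versus 8.45 and 8.36, a difference of −0.053 ± 0.17. Mcm4 read 11.28 and 11.53 versus 11.75 and 11.41, a difference of −0.18 ± 0.18 (−0.0061 on its second probe set). In these 3 genes too the groups overlapped.

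Mcm3 read 11.20 and 10.19 with Cre-GFP virus versus 10.92 and 9.18 with control virus, a difference of 0.64 ± 0.60 (limma adjusted p = 1). In each group replicate 1 stood above replicate 2, by 2.02-fold in Cre-GFP and 3.33-fold in control, and the groups overlapped. The difference was −0.22 without control 2, 0.14 without Cre-GFP 1, 1.15 without Cre-GFP 2 and 1.51 without control 1. The other 4 Mcm3 probe sets did not show this spread: they differed between the groups by 0.036 to 0.18, between the Cre-GFP arrays by −0.19 to 0.12 and between the control arrays by −0.0049 to 0.31. With the mean of the 5 probe sets the group difference of Mcm3 was 0.22.

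**Figure D2:**
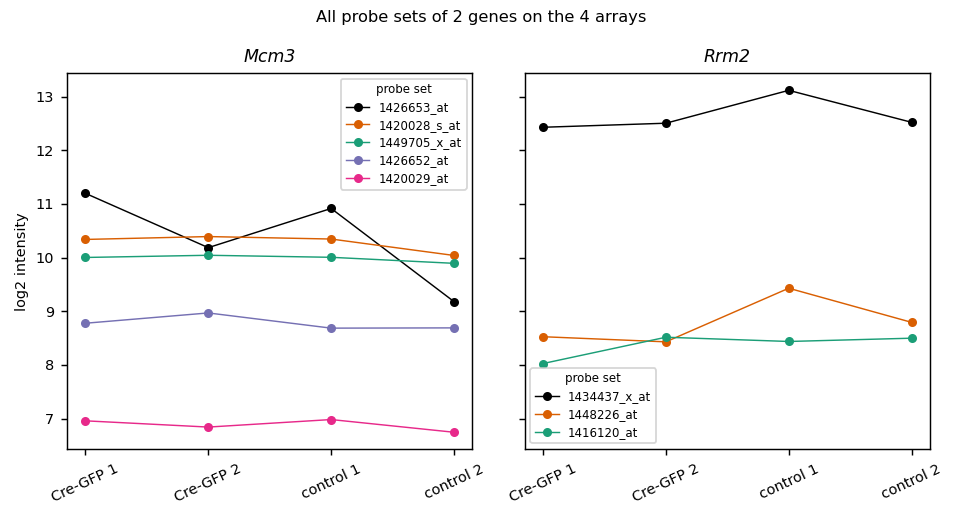
Log2 intensity of every probe set of Mcm3 (left, 5 probe sets) and Rrm2 (right, 3 probe sets) on the 4 arrays; thin lines join the values of one probe set and carry no order in time. The black Mcm3 probe set, the one used for the gene, reads 10.19 in Cre-GFP 2 and 9.18 in control 2 while the other 4 stay nearly level, and the Rrm2 probe sets in black and orange peak in control 1.

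Of the factors that switch the helicase on, Mcm10 read 9.61 and 9.57 with Cre-GFP virus versus 9.52 and 9.48 with control virus. Its groups were apart, by a difference of only 0.090 ± 0.16. Cdc45, a subunit of the active helicase, read 8.33 and 8.19 versus 8.59 and 8.39, a difference of −0.23 ± 0.17 with the Cre-GFP arrays below both controls. On the probe sets used, all 8 measured helicase genes read higher in control 1 than in control 2, as did 6584 of all 12394 genes. Of the 8, 5 read higher in Cre-GFP 1 than in Cre-GFP 2, as did 7320 of all genes. The second probe sets of Mcm2, Mcm4 and Mcm6 read lower in control 1.

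Primase and polymerase genes were higher in 3 of 8 cases, with a median difference of −0.045. Pold2, a small subunit of polymerase delta, read 10.34 and 10.27 with Cre-GFP virus versus 10.22 and 9.83 with control virus, a difference of 0.28 ± 0.19. The groups were apart, and the low array was control 2, without which the difference was 0.090. Pold1, the catalytic subunit of the same polymerase, read 12.20 and 11.64 versus 11.90 and 11.37, a difference of 0.28 ± 0.26. Replicate 1 exceeded replicate 2 in both groups, by 0.57 and 0.53, and its second probe set gave 0.66 and 0.45.

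Pole2, a subunit of polymerase epsilon, read 9.30 and 9.51 with Cre-GFP virus versus 9.77 and 9.50 with control virus, a difference of −0.23 ± 0.19 with overlapping groups. Prim1, the catalytic primase subunit, differed by −0.21 ± 0.18 and Prim2, its partner, by −0.066 ± 0.16. In both the Cre-GFP arrays lay below the controls, and their second probe sets differed by −0.11 and −0.20. Pola1 and Pola2, of polymerase alpha, differed by 0.12 and −0.089, and Pole, the catalytic subunit of polymerase epsilon, by −0.024.

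The clamp, clamp loader and single-strand binding genes had the highest median among the roles with over 2 genes, 0.15, with 5 of 9 higher in Cre-GFP. Pcna, the sliding clamp that holds the polymerase on DNA, read 12.23 and 12.70 with Cre-GFP virus versus 12.14 and 12.48 with control virus. The difference of 0.15 ± 0.21 was smaller than the gap between the replicates of either group. Rfc1, the large subunit of the clamp loader, read 9.57 and 9.80 versus 9.28 and 9.54. Both Cre-GFP values were above both controls, a difference of 0.27 ± 0.19, with 0.029 and 0.42 on its other probe sets.

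Rfc2, a small clamp loader subunit, read 8.55 and 8.78 with Cre-GFP virus versus 7.96 and 8.82 with control virus, a difference of 0.27 ± 0.30. Control 1 stood 1.82-fold below control 2, and without it the difference was −0.16. Rfc3, Rfc4 and Rfc5 differed by −0.093, −0.17 and 0.17. Rfc4 was the one of these 3 with groups apart. Rpa3 and Rpa2 are subunits of the protein that coats single-stranded DNA, and they lay on opposite sides. Rpa3 read 9.25 and 9.47 versus 9.66 and 9.70, a difference of −0.31 ± 0.17 with Cre-GFP below control. Rpa2 read 9.53 and 9.83 versus 9.33 and 9.50, a difference of 0.27 ± 0.19 with Cre-GFP above control. The large subunit Rpa1 read 13.70 in each Cre-GFP array and 13.76 and 13.68 in control.

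Both lagging strand genes were higher in Cre-GFP by small differences that did not pass the test. Fen1, the nuclease that trims Okazaki fragments, read 13.69 and 13.55 with Cre-GFP virus versus 13.72 and 13.38 with control virus, a difference of 0.068 ± 0.14. Lig1, the ligase that joins the fragments, read 10.23 and 10.13 versus 10.04 and 10.06, a difference of 0.13 ± 0.16. The Lig1 groups did not overlap and differed by more than either pair of replicates, while the 2 Fen1 values of Cre-GFP lay inside the control range. A second Fen1 probe set read 8.96 and 9.13 versus 8.75 and 8.74, a difference of 0.29 with the groups apart.

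Of the 6 nucleotide synthesis and uracil removal genes, 5 were lower and 1 higher in Cre-GFP, with a median difference of −0.058. Rrm2, the small subunit of ribonucleotide reductase and the one whose amount follows S phase, read 12.43 and 12.50 with Cre-GFP virus versus 13.12 and 12.52 with control virus. Both Cre-GFP values lay below both controls, but Cre-GFP 2 and control 2 nearly met and control 1 stood alone. The difference was −0.35 ± 0.21 (limma adjusted p = 1), or −0.055 without control 1 and −0.65 without control 2. Its other 2 probe sets differed by −0.20 and −0.63, and the second of these was also highest in control 1. Rrm1, the large subunit, read 10.63 and 10.65 versus 10.70 and 10.66, a difference of −0.033 ± 0.15.

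Tyms, thymidylate synthase, read 7.30 and 7.75 with Cre-GFP virus versus 7.39 and 8.14 with control virus, a difference of −0.24 ± 0.29. Replicate 2 exceeded replicate 1 in both groups, by 1.36-fold and 1.68-fold, and the difference was 0.14 without control 2. Tk1, the thymidine kinase of dividing cells, differed by 0.16 ± 0.19. Dut, which removes dUTP, and Ung, which cuts uracil out of DNA, differed by −0.023 ± 0.18 and −0.083 ± 0.21. These 3 genes had overlapping groups.

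In the chromatin group, Uhrf1, which recognizes newly copied methylated DNA, read 9.96 and 10.35 with Cre-GFP virus versus 10.20 and 10.54 with control virus, a difference of −0.21 ± 0.22. Its second probe set differed by 0.098. Dnmt1, the maintenance DNA methyltransferase that Uhrf1 recruits, read 12.63 and 12.39 versus 12.84 and 12.21. Both its Cre-GFP values lay between the controls, which were 1.56-fold apart, and the difference was −0.012 ± 0.23. Chaf1b, a subunit of chromatin assembly factor 1, read 8.41 and 8.58 versus 8.48 and 8.49, a difference of 0.012 ± 0.16.

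**Figure D3:**
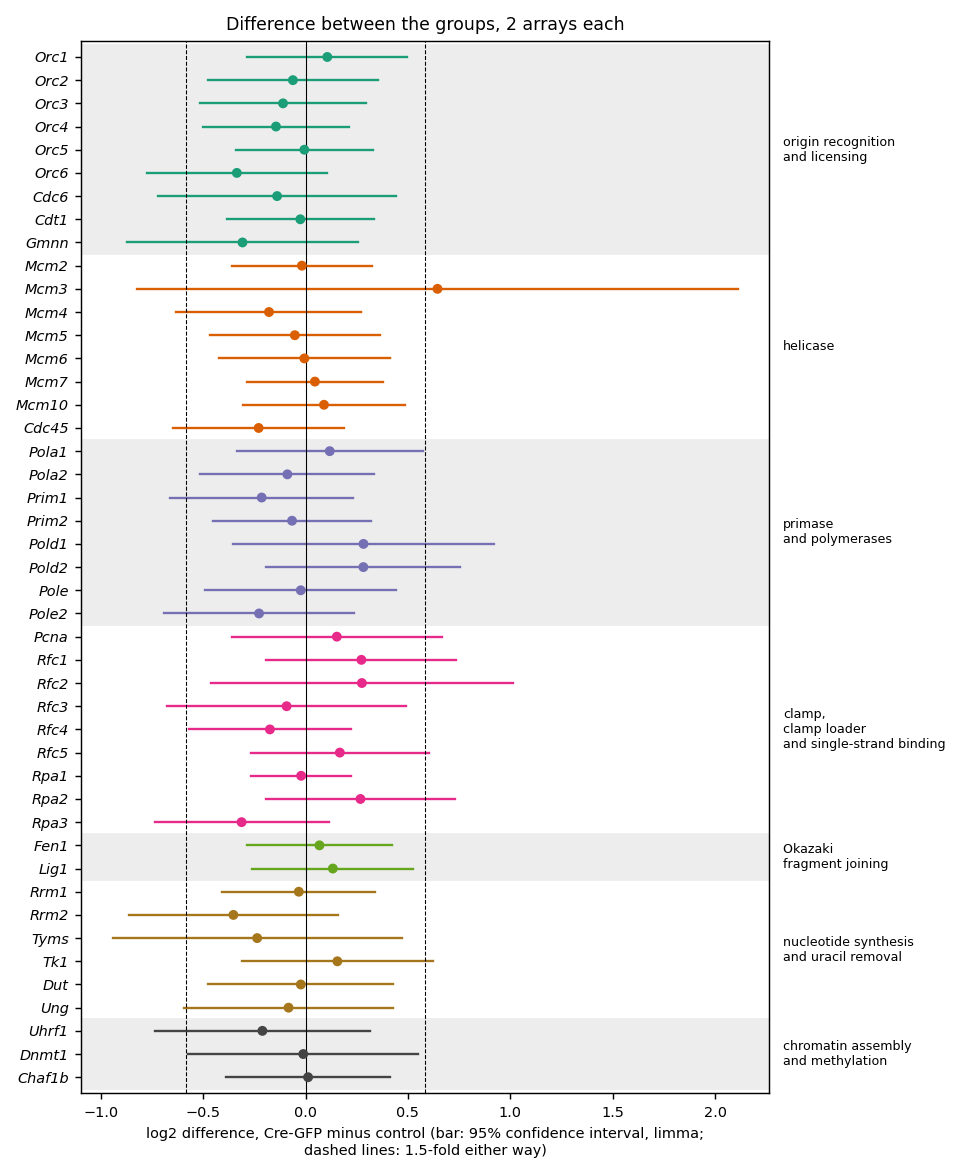
Points give the log2 difference, Cre-GFP minus control, of each of the 45 genes and bars its 95% confidence interval from limma, with colours and shading by role and dashed lines at 1.5-fold. Every bar crosses 0, and only those of Mcm3 and Rfc2 reach beyond 2-fold.

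Counting only whether the groups overlapped, 5 of the 45 genes had both Cre-GFP arrays above both controls (15.2% of all genes, 11.1% of the 45): Mcm10, Pold2, Rfc1, Rpa2 and Lig1. Another 9 had both below (14.9% of all genes, 20.0% of the 45): Orc4, Orc6, Cdc45, Prim1, Prim2, Rfc4, Rpa3, Rrm1 and Rrm2. With the mean of probe sets the counts were 7 above and 5 below (15.5% and 14.8% of all genes), and with shared probe sets left out 6 and 6 of 39 (15.3% and 14.4%). With 3 arrays overlap is rarer: the counts were 17 above and 15 below without control 1 (34.4% and 30.7% of all genes), 8 and 20 without control 2 (30.2% and 32.8%), 10 and 23 without Cre-GFP 2 (38.7% and 28.6%), and 14 and 11 without Cre-GFP 1 (27.6% and 36.6%). The sign of the difference turned in 24 of the 45 genes when some single array was left out.

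Replicate 1 was set against replicate 2 inside each group, a comparison of 1 array with 1 that has no test. In Cre-GFP 14 genes read higher in replicate 1 and 31 lower, with a median of −0.097 against 0.053 for all genes. In control 29 read higher in replicate 1 and 16 lower, with a median of 0.11 against 0.017. The medians thus had opposite signs in the 2 groups, but not with shared probe sets left out, where they were −0.13 in Cre-GFP and −0.024 in control over 39 genes. At 1.5-fold or more, 1 gene stood higher in Cre-GFP 1 than in Cre-GFP 2 (Mcm3, 2.22% of the 45 beside 1.83% of all genes) and 1 lower (Cdc6, beside 3.06%). In control, 3 stood higher in replicate 1 (Mcm3, Dnmt1 and Rrm2, 6.67% beside 2.02%) and 2 lower (Rfc2 and Tyms, 4.44% beside 3.80%).

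The replicate differences in Cre-GFP and in control, which share no array but share the probe sets and the joint RMA run, correlated with Pearson's r = 0.71 over the 45 genes, 0.55 without Mcm3 and 0.35 over all genes. Within roles r was 0.88 among the helicase genes, 0.65 among the nucleotide genes and 0.64 for primase and polymerases. It was 0.37 for the clamp group and 0.17 for origin and licensing genes. With so few genes a single one can carry r. Mcm3 (1.01 in Cre-GFP and 1.74 in control) lay far from the other helicase genes, and Tyms (−0.45 and −0.75) from most nucleotide genes. Within roles r was not computed without them, so it does not show that the genes of a role moved together. Genes are not independent replicates, and no test was made of this. The sign was the same in 28 of 45 (62.2%), near the 61.3% of all genes. It was the same in 2 of the 6 nucleotide genes, 7 of the 9 clamp group genes and 3 of the 3 chromatin genes. Pold1, higher in replicate 1, and Pcna, Rfc3, Uhrf1 and Tyms, higher in replicate 2, kept their direction in both groups by at least 0.33, as did Mcm3. The second probe set of Uhrf1 ran the other way, by 0.79 in Cre-GFP and 0.35 in control. Among the 9 clamp, clamp loader and single-strand binding genes, 9 were lower in Cre-GFP 1 than in Cre-GFP 2 and 7 lower in control 1 than in control 2. These counts hold for the probe sets used, and over all 12394 genes they were 5041 and 5774. The other Rfc1 probe sets ran the opposite way, by 0.098 and 0.54 between the Cre-GFP arrays. Between the control arrays they gave 0.76 and 0.47. The other Rpa1 probe set was higher in Cre-GFP 1, by 0.25. Those of Rfc3, Rfc4 and Rpa2 were lower in replicate 1 of each group. The helicase genes were higher in control 1 in 8 of 8 cases on the probe sets used, beside 6584 of all 12394 genes. There the second probe sets of Mcm2, Mcm4 and Mcm6 gave −0.11, −0.15 and −0.29, and that of Mcm10 gave 0.26. Other probe sets of Mcm3 ran from −0.0049 to 0.31 and those of Mcm7 from −0.47 to 0.25.

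**Figure D4:**
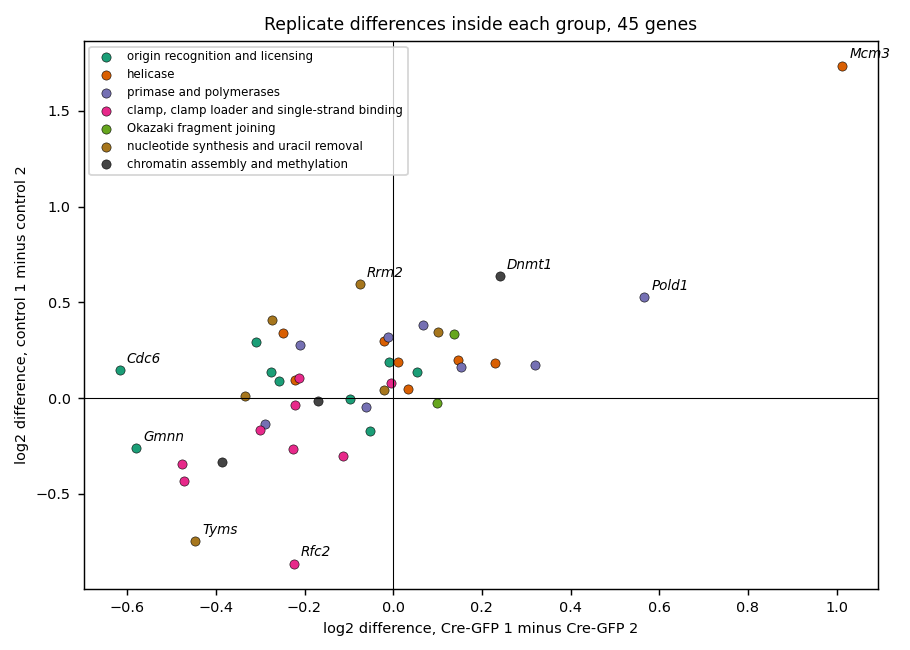
Each point is one of the 45 genes, with the log2 difference of Cre-GFP 1 minus Cre-GFP 2 across and that of control 1 minus control 2 upward, coloured by role. Mcm3 lies alone at upper right (1.01 and 1.74), and Rfc2 and Tyms lie lowest (−0.86 and −0.75 in control).

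The type of probe set moved with the control difference. Of the 18 genes read by a probe set whose name marks it as shared between transcripts or related sequences (ending in _a_at, _s_at or _x_at), 15 were higher in control 1, with a median of 0.18. Of the other 27 genes 14 were, with a median of 0.042. Over all genes the 2 kinds were alike, with medians of 0.012 and 0.019. For 12 genes read by a shared probe set, a plain one of the same gene was also on the array. Of these 12, 9 were higher in control 1 on the shared probe set, and among those 9 the plain probe sets were lower in control 1 for 5 genes, higher for 3 and divided for 1. The 5 were Dut, Mcm2, Mcm4, Mcm6 and Rfc4, at −0.13, −0.11, −0.15, −0.29 and −0.62 on the plain probe set. The 3 were Mcm10, Pold1 and Rpa1, at 0.26, 0.45 and 0.022, and Rrm2 gave −0.061 and 0.64. The part of probe set design in these values was not tested. Of the 26 genes with more than 1 probe set, 13 had differences between the groups of 1 sign on all of them.

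Other genes of the same pathways, listed by name and not for how they moved, gave few differences either. Of 29 measured fork and origin factors 15 were higher and 14 lower in Cre-GFP, with a median of 0.00025. At an unadjusted limma p under 0.05 there were 0 of the 29, beside 4.84% of all genes. Cdc7, the kinase that fires origins, read 7.52 and 7.54 with Cre-GFP virus versus 7.32 and 6.88 with control virus, a difference of 0.43 ± 0.19 (−0.14 on its second probe set, and 0.21 without control 2). Chtf8, of an alternative clamp loader, differed by 0.34 ± 0.20 (0.12 without control 1) and Asf1a, a histone chaperone, by −0.32 ± 0.21 (−0.11 without control 2). Mcm9, a relative of the Mcm helicase, differed by −0.22 ± 0.10 (−0.13 without Cre-GFP 1). Its only probe set was dim, with a mean of 4.60 at percentile 12.4 of all genes, and RMA compresses dim values.

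Of 29 measured nucleotide synthesis genes outside the main list, 18 were higher and 11 lower, with a median of 0.046. Rrm2b, the p53-inducible small subunit of ribonucleotide reductase, was the 1 gene of the 29 at an unadjusted limma p under 0.05 (4.84% of all genes). It read 8.56 and 8.53 with Cre-GFP virus versus 9.09 and 9.10 with control virus, so that replicates nearly coincided and the groups lay well apart. Its difference was −0.55 ± 0.16 (limma adjusted p = 0.76), and it ran from −0.56 to −0.53 over the 4 fits that left out 1 array. Dck, the salvage kinase for deoxycytidine, read 11.10 and 11.47 versus 11.95 and 11.58. The groups did not overlap, and the difference was −0.48 ± 0.20 (−0.30 without Cre-GFP 1 and −0.30 without control 1), with −0.22 and −0.54 on its other probe sets. Cad, the first enzyme of pyrimidine synthesis, differed by 0.49 ± 0.32 (0.93 without control 1 and 0.050 without control 2) and Shmt2, a mitochondrial serine hydroxymethyltransferase, by 0.35 ± 0.19 (0.036 to 0.52 on its other probe sets, and 0.18 without control 2).

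Of 20 E2F and S phase entry regulators, 8 were higher and 12 lower, with a median of −0.086. At an unadjusted limma p under 0.05 there were 2 of the 20, beside 4.84% of all genes. Rb1, the retinoblastoma protein that restrains E2F factors, read 8.28 and 8.76 with Cre-GFP virus versus 9.35 and 9.51 with control virus. Both Cre-GFP arrays lay below both controls, a difference of −0.91 ± 0.22 or 1.88-fold (limma adjusted p = 0.60), and it ran from −1.15 to −0.67 over the same fits. E2f5, an E2F factor that represses, differed by −0.42 ± 0.17 (limma adjusted p = 1), with −0.28 when control 2 was left out and −0.20 on its second probe set. Mybl2, a transcription factor of dividing cells, differed by 0.39 ± 0.19 (0.037 on its second probe set and 0.18 without control 2) and Ccne1, cyclin E1, by −0.27 ± 0.17 (−0.14 without control 1). Of 23 mitosis genes 9 were higher and 14 lower, with a median of −0.13 and 0 at an unadjusted limma p under 0.05 (4.84% of all genes). Ccnb2, Cenpe, Birc5 and Cenpa, which act in mitotic entry, at the kinetochore and in the chromosomal passenger complex, differed by −0.33, −0.32, −0.28 and −0.28. Single arrays weighed on 3 of these: Ccnb2 gave −0.21 without control 2, Cenpe −0.080 without Cre-GFP 2 and −0.13 without control 1, and Birc5 −0.11 without Cre-GFP 1.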

How the data were processed

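The authors deposited 1 table of probe set intensity values on a linear scale for 4 arrays (2 Cre-GFP, 2 control), made with RMA per the submitters' processing notes. The RMA version is not given in those sources. RNA (20 ng) was amplified with a NuGen Ovation kit, per the labels' protocols. Of 22690 probe sets, 20393 carried exactly 1 gene symbol in the platform annotation, 691 several and 1606 none, and only the first kind was used. Median intensities were 85.1 to 87.7. RMA as normally run brings arrays to nearly one distribution and compresses dim values. The number of arrays limits the precision, and scan batches were not tested.

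Values were put on the log2 scale. A gene with several probe sets was represented by the one of highest mean, and 12394 genes were fitted with limma 3.58.1 in R 4.3.3 (lmFit, eBayes with intensity trend, two-sided, Benjamini-Hochberg over all genes, threshold 0.05). The same fit was also run on simulated data, whose results are not given here. Values on all 4 arrays are given for Mcm2 to Mcm7, the 2 members per role with the smallest p and the 5 with the largest replicate difference. Up to 4 genes per other list are named by smallest p. Genes named with values beyond these were chosen after their values were seen. The members and lists were chosen with earlier results of these data known. Alternatives covered the probe set choice, dim values, normalization, a pseudocount of 32, moderation, a block and single arrays left out.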

Additional observations from a re-analysis of the deposited data

How the results depend on the processing

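The count of members past the limma threshold was 0 under every alternative run. That of all genes was 0, apart from 2 by an ordinary two-sample test and, with 3 arrays, 135 without control 1 and 34 without control 2. The labels do not say what a shared replicate number marks; over all genes, same-numbered deviations from the group means correlated at 0.35. With the number as a replicate block, 0 members and 0 of all genes passed, the smallest adjusted p of a member was 0.64, 1 member had an unadjusted p under 0.05, and 952 genes had an unadjusted p under 0.05 in place of 600. Leaving out 1 array at a time gave median differences of the members from −0.073 to −0.00063. Non-overlapping groups numbered 3 above after quantile normalization (15.7% of all genes), and 5 below with the mean of probe sets (14.8%) and 5 with arrays centred on their median (16.1%); they ranged from 8 to 17 above and 11 to 23 below without single arrays, since fewer arrays overlap less. Replicate differences past 1.5-fold were 2 (Cre-GFP 1 higher) without shared probe sets and after quantile normalization; 0 (Cre-GFP 1 lower) without shared probe sets and with log2(value + 32), and 2 with centred arrays; in control 0 higher and 1 lower with the mean of probe sets. Of 442 recomputed member differences outside the leave-one-out fits, 15 turned sign. These were, with the mean of probe sets, Orc3 (0.054), Cdt1 (0.011), Mcm2 (0.040), Mcm6 (0.044), Rpa1 (0.058), Dut (0.030) and Dnmt1 (0.0029); without shared probe sets, Cdt1 (0.014), Mcm2 (0.099), Mcm6 (0.094), Rpa1 (0.14) and Dut (0.084); and after quantile normalization, Mcm2 (0.0029), Mcm6 (0.0017) and Dnmt1 (0.0037). Of 180 leave-one-out differences 34 turned sign. Their ranges were −0.049 to 0.26 for Orc1, −0.16 to 0.032 for Orc2, −0.14 to 0.13 for Orc5, −0.45 to 0.17 for Cdc6, −0.074 to 0.023 for Cdt1, −0.11 to 0.077 for Mcm2, −0.22 to 1.51 for Mcm3, −0.16 to 0.058 for Mcm5, −0.16 to 0.14 for Mcm6, −0.069 to 0.16 for Mcm7, −0.042 to 0.28 for Pola1, −0.00056 to 0.57 for Pold1, −0.18 to 0.14 for Pole, −0.085 to 0.39 for Pcna, −0.16 to 0.71 for Rfc2, −0.33 to 0.14 for Rfc3, −0.061 to 0.017 for Rpa1, −0.10 to 0.24 for Fen1, −0.61 to 0.14 for Tyms, −0.017 to 0.33 for Tk1, −0.19 to 0.14 for Dut, −0.29 to 0.12 for Ung, −0.33 to 0.31 for Dnmt1 and −0.073 to 0.097 for Chaf1b. The cause of these turns was not tested.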

Other observations

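The mean profile of the 45 genes, each centred on its own mean, was −0.053 in Cre-GFP 1, 0.037 in Cre-GFP 2, 0.056 in control 1 and −0.040 in control 2. Outside the gene lists, the 5 genes nearest to it by Euclidean distance over the 4 arrays, among genes with a mean at or above the median, were Naa38, Pnkd, Virma, Czib and Vcam1, at distances of 0.0069 to 0.023.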
